A study of Mus musculus with 21 samples.

Results

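The miRNAs described here are those whose names begin with miR-297, miR-466, miR-467 or miR-669 followed by a letter, a large repeat family of rodents. They were chosen by name alone, and any arm was taken. The rule found 54 of the 1647 mature miRNAs in the table: 3 of miR-297, 20 of miR-466, 11 of miR-467 and 20 of miR-669. Of these members, 25 were 5p arms, 19 were 3p arms and 10 carried no arm in their name.

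Small RNA of the cochlea and of the superior olivary complex (SOC), the first brainstem centre that compares sound from both ears, was sequenced in untreated wild-type mice at embryonic day 16 (E16), the day of birth (P0) and postnatal day 16 (P16). The cochlear samples were sensory epithelium of C57BL/6JOlaHsd mice, with 2 E16 libraries, 4 of P0 and 4 of P16. The SOC samples, labelled neuronal, came from C57Bl6/J mice, with 4 libraries each of E16 and P0 and 3 of P16. Each sample pooled tissue of several animals of both sexes. Strain, RNA isolation kit (Direct-zol or innuPREP) and library kit (SMARTer smRNA-Seq or TruSeq Small RNA) changed with the organ. A higher level in one organ therefore cannot be told apart from these, and changes over time were tested within each organ.

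A miRNA hairpin is cut into a duplex of a 5p and a 3p arm, one of which is usually kept by Argonaute and pairs with target mRNAs through its seed, bases 2 to 8. Most hairpins of this family lie in an intron of Sfmbt2, which encodes a Polycomb protein and is expressed from the paternal allele in the placenta. The cluster is best known from the placenta and from embryonic stem cells. Its mature miRNAs are rich in CA and UG repeats and resemble each other closely, so that a short read can fit several of them.

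In the GENCODE annotation of GRCm38, the build named in the processing notes as mm10, Sfmbt2 spans chr2:10370510-10595253 on the plus strand. It holds 71 hairpins of these families, all in intron 11 of its longest transcript, which has 23 exons, over 51.6 kb from 10466663 to 10518279. The family name and the locus did not fully coincide. Of the 54 members, 41 had hairpins only inside Sfmbt2, 4 had copies inside and elsewhere, 8 lay elsewhere only and 1 (miR-466a-5p) had no entry. The 8 outside were miR-466i-5p and miR-466i-3p (Mir466i, chr13:17747473-17747593, opposite to an intron of Cdk13), miR-466k and miR-466q and miR-669n on chromosome 3, miR-467g on chromosome 5, miR-467h on chromosome 9 and miR-467f on chromosome 11.

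Counts of single members are uncertain where reads fit more than one place. A total of 10 members had more than 1 hairpin, and miR-467a had 10, so that its counts cannot be assigned to a copy. Neither the processing notes nor the methods say how reads that fit several miRNAs were counted. No members had the same counts in every library, and none of the 7 mature sequences available was the same as another.

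The sequences below show this resemblance. They are the mature sequences of the 7 members found in RefSeq (GRCm38.p6), with the seed in capitals, and all 7 belong to hairpins outside Sfmbt2.

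miR-466i-3p: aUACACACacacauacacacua
miR-466q: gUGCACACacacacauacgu
miR-467f: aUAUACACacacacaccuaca
miR-467g: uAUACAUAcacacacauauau
miR-466k: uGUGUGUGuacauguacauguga
miR-467h: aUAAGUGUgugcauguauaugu
miR-669n: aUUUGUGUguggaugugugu

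The 7 seeds were all different. The letters ACACACA occurred in 4 of these 7 members (miR-466i-3p, miR-466q, miR-467f and miR-467g) and in 1 of the 1408 other miRNAs of the table with a RefSeq sequence, or 0.071%. The letters GUGUGUG occurred in the 3 remaining members and in 8 of the 1408 others, or 0.568%. Both were searched on the strand of the mature miRNA, overlapping matches included. Among the other miRNAs with GUGUGUG were miR-574-5p and miR-1187, shown for comparison.

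miR-574-5p: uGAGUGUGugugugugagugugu
miR-1187: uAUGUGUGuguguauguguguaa

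Total counts per library were 124400 to 447419 in the cochlea and 8309669 to 18053698 in the SOC, so that 1 count stood for at least 2.24 CPM (counts scaled to a common library total) in the cochlea and for at most 0.12 CPM in the SOC. Counting limits cover counting error only. No 2 libraries of a group agreed within sampling noise. The neuronal miRNAs miR-124-3p, miR-9-5p and miR-128-3p summed to 28097 to 111399 CPM in the SOC. In the cochlea they summed to 3581 to 4385 CPM at E16, 528.3 to 1267 at P0 and 660.2 to 1449 at P16. The hair cell miRNAs miR-183-5p, miR-182-5p and miR-96-5p summed to 69631 to 71872 CPM in the cochlea at E16, 31182 to 39320 at P0 and 10805 to 40102 at P16. Their sum was higher in the SOC at E16 (97018 to 147946 CPM), but the single miRNAs differed. At E16 miR-182-5p had a mean of 87092 CPM in the SOC and 3777 in the cochlea. The means of miR-183-5p were 33031 ± 22143 and 66849 ± 1790, and those of miR-96-5p 188.6 ± 142.3 and 125.7 ± 32.35. By the sum of each list, both E16 cochlea libraries lay above all later ones for the neuronal, hair cell, epithelial, blood cell and red blood cell lists. They overlapped with P16 for cartilage, and lay below P16 for muscle and oligodendrocytes. At E16 the 6 epithelial miRNAs (the miR-200 family and miR-205-5p) summed to 18498 to 28045 CPM, then to 4754 to 7992 and 1587 to 6679. Of these, miR-205-5p was higher at P0 (mean 412.2 CPM) than at E16 (283.2). The 2 blood cell miRNAs summed to 1935 to 2079 CPM, then to 203.6 to 265.3 and 448.5 to 737.1. The cartilage miRNA miR-140-3p was at 1026 to 1152 CPM, then at 209.1 to 404 and 530.5 to 1113. The 3 muscle miRNAs summed to 630.5 to 706.3 CPM, then to 187.1 to 472.7 and 710.6 to 4487. Between E16 and P16 the mean of miR-1a-3p went from 595.7 to 2836 CPM and that of miR-206-3p from 72.72 to 51.38. miR-133a-3p had 0 counts in the cochlea. The 2 red blood cell miRNAs summed to 14.5 to 29.1 CPM and later to 0, and miR-338-3p, the one oligodendrocyte miRNA of the table, was at 15.7 to 43.5 CPM, then at 5.5 to 61.4 and 191.5 to 506.2. The part of these markers in the results below was not tested. Less RNA per cell and fewer cells of a type cannot be told apart in such bulk samples. The SOC libraries fell into 3 sets by the share of miR-99b-5p and miR-191-5p: set A (E16 replicates 2 and 3, P0 replicates 2 and 3), set C (P0 replicate 4, P16 replicates 2 and 3) and set B (the remaining ones). The labels name no batch for these sets.

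In the cochlea, the family took a larger share of all miRNA counts after E16. Summed over the 54 members, the level was 5747 and 5804 CPM in the E16 libraries, 13168, 12101, 12810 and 9041 at P0, and 16172, 12725, 14160 and 20410 at P16. All later libraries lay above both E16 libraries, and P0 and P16 overlapped. The means were 5776 ± 40.6 CPM (SD, n = 2), 11780 ± 1879 (n = 4) and 15867 ± 3343 (n = 4), or 0.578%, 1.18% and 1.59% of the counts. A single member, miR-466i-5p, held most of the difference, as its part of the summed counts was 40.3% to 47.2% at E16, 70.6% to 77.2% at P0 and 76.3% to 80.3% at P16. On library totals the other 53 members together held 3249 ± 305 CPM at E16, 3023 ± 289.5 at P0 and 3475 ± 974.7 at P16, differences smaller than their spread. TMM is edgeR's correction for differences in composition between libraries. On its scale these means were 2485 ± 291.8, 3180 ± 231.2 and 3704 ± 593.5. The libraries then ranged from 2279 to 2692 CPM at E16, 2880 to 3403 at P0 and 3173 to 4467 at P16. All later libraries thus lay above E16 on this scale. Whether the other 53 members rose, and their direction from E16 to P0, depended on the scaling, and these sums were not tested.

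**Figure D1:**
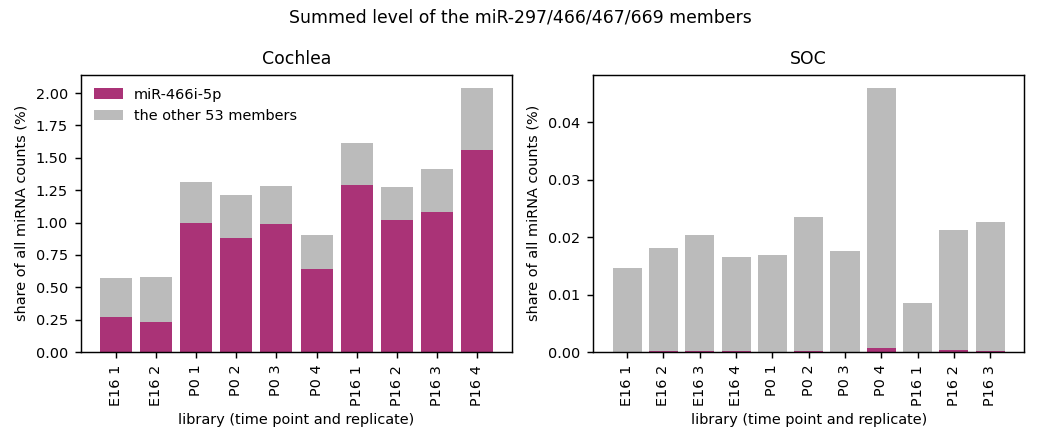
Share of all miRNA counts (percent, bars from 0) taken by miR-466i-5p and by the other 53 members in each cochlea library (left) and SOC library (right, with its own axis). In the cochlea the summed share runs from 0.575% to 2.04%, mostly miR-466i-5p after E16, and in the SOC from 0.00847% to 0.046%.

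In the SOC the family was far scarcer and had another leading member. The summed level was 146, 181, 203.1 and 164.7 CPM at E16, 169.4, 235.2, 176.4 and 459.6 at P0, and 84.7, 211.7 and 225.8 at P16. The time points overlapped, and the highest value was that of replicate 4 of P0, in set C. Within set B alone the levels were 146 and 164.7 CPM at E16, 169.4 at P0 and 84.7 at P16. Here miR-466i-5p held 0.0874% to 1.93% of the summed counts, while miR-467a-5p, from 10 hairpins inside Sfmbt2, held 50.2% to 58.8% at E16, 27.4% to 57.1% at P0 and 27.5% to 48.9% at P16. Members inside Sfmbt2 made up 91.4% to 97.9% of the family's counts in the SOC libraries and 12.1% to 42% in the cochlea libraries.

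A member was taken as detected if 2 or more replicates of any time point exceeded 1 CPM, the criterion of the study's methods. By it 43 of the 54 members (79.6%) were detected in the cochlea, against 896 of all 1647 miRNAs (54.4%). In the SOC it was 16 of 54 (29.6%), against 694 of 1647 (42.1%). Both organs shared 15 members, 28 were detected in the cochlea only, miR-466d-5p in the SOC only, and 10 in neither. In the cochlea 23 members passed at all 3 time points, 14 at 2 and 6 at 1, and in the SOC 12, 3 and 1.

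The criterion asks for a different number of counts in each organ. A single count passed it in every cochlea library, whereas in the SOC 1 count stood for 0.0554 to 0.12 CPM. With at least 1 count in 2 replicates the SOC had 36 members (66.7%, against 74.1% of all miRNAs). With at least 10 counts in 2 libraries of a time point 19 members (35.2%) passed per organ. Of all miRNAs, 24.7% met this rule for the cochlea but 45.3% for the SOC, so equal member counts lay on different backgrounds. A limit of 5 CPM left 42 members (77.8%, against 49.5% of all miRNAs) in the cochlea and 7 (13%, against 29.9%) in the SOC. After random thinning of each SOC library to the median cochlea total, 15 members (27.8%) and 36.3% of all miRNAs passed. All 54 members had a count in at least 1 of the 21 libraries, and miR-467h and miR-466f-5p had 1 count each in all.

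The arms were detected unequally. Inside Sfmbt2, 17 of 21 members of the 5p arm and 14 of 17 of the 3p arm passed in the cochlea, whereas 11 of 21 and 0 of 17 passed in the SOC. In single SOC libraries the 5p arms inside Sfmbt2 held 86.3% to 96.8% of the family's counts and the 3p arms 0.407% to 1.69%. In the cochlea the 5p arms summed to 1483 ± 370.8 CPM at E16 (n = 2), 1087 ± 201.1 at P0 and 1108 ± 547.9 at P16 (n = 4 each). The 3p arms summed to 579.5 ± 133.6, 837.3 ± 208.3 and 1131 ± 296.8 CPM. These sums were not tested.

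Both arms were listed for 14 names. Of the 10 with at least 20 counts in each organ, 5 had more of the 5p arm in one organ and more of the 3p arm in the other. For miR-669b the SOC had 1321 counts of the 5p arm and 11 of the 3p arm (99.2% 5p), and the cochlea 8 and 150 (5.06%). The arm with more counts was the 5p arm in 11 of 11 SOC libraries and the 3p arm in 10 of 10 cochlea libraries. miR-467b (100% and 40.5% of 5p counts in the SOC and the cochlea), miR-467d (98.9% and 24.4%) and miR-669e (97% and 17.9%) had the same direction in their summed counts, and miR-466i the opposite one (34.4% and 92.4%). In the cochlea the first 3 of these rested on few counts: the 3p arm was higher in 6 libraries and the 5p arm in 3 for miR-467b (25 and 17 counts), in 9 and 1 for miR-467d (31 and 10 counts), and in 3 and 2 for miR-669e (32 and 7 counts). The E16 libraries held 16 and 13 of the 32 counts of miR-669e-3p. miR-466i had more of the 5p arm in 10 of 10 cochlea libraries and more of the 3p arm in 10 of 11 SOC libraries. Since each organ had its own library kit, organ and kit cannot be told apart here.

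**Figure D2:**
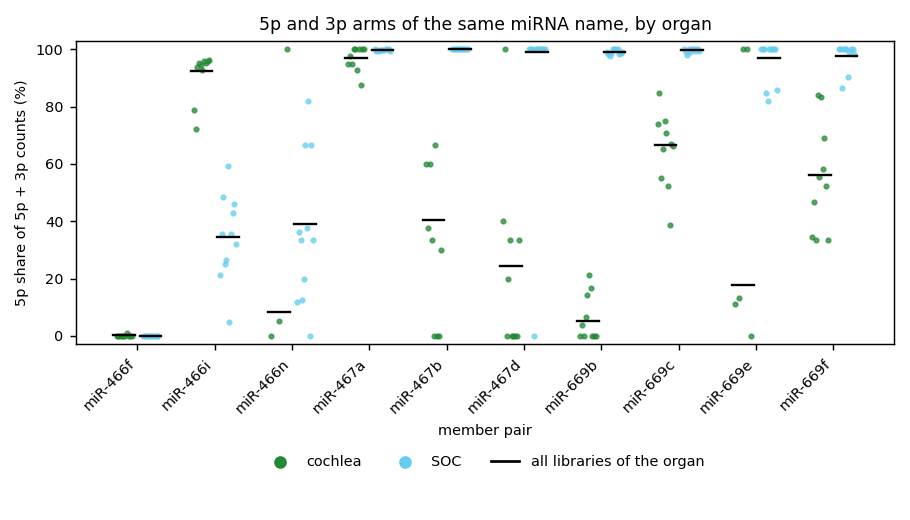
Share of the 5p arm among the 5p and 3p counts (percent, y axis) for the 10 names with at least 20 counts in each organ. Points are libraries with at least 1 count, and lines are the counts of all libraries of an organ. miR-669b lies at 99.2% in the SOC and 5.06% in the cochlea, and miR-466i at 34.4% and 92.4%.

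Differential expression between time points was tested with edgeR's quasi-likelihood test in each organ over all detected miRNAs, with Benjamini-Hochberg adjustment (FDR). A member was called when its FDR was under 0.05, its fold change over 1.5 and its replicates did not overlap between the time points on TMM-normalized CPM. Fold changes below come from this fit. Because the TMM factors were 1.33 and 1.29 for the E16 cochlea libraries and 0.648 to 1.08 for the later ones, they differ from ratios of the CPM values, which refer to library totals. Without TMM the fold changes of all tested cochlea miRNAs against E16 shifted by a median of -0.43 (P0) and -0.44 (P16) on the log2 scale.

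From E16 to P0, 5 of the 43 tested cochlea members rose (miR-466i-5p, miR-466f-3p, miR-669c-3p, miR-466m-3p and miR-669c-5p) and 3 were called lower (miR-467a-5p, miR-669e-3p and miR-466n-3p). Of these 3, miR-669e-3p and miR-466n-3p passed the filter on low values at E16 only, the group where they were higher, so that a lower later level was fixed by their being tested. Among all 896 tested miRNAs, 7.81% were called higher and 16.6% lower. From E16 to P16, 7 rose, namely the first 4 of these together with miR-466q, miR-466h-5p and miR-467g, and 2 were called lower, miR-467a-5p and miR-466n-3p. In this comparison miR-466h-5p passed the filter in the P16 group and miR-466n-3p in the E16 group only, with the same limit. Here 10.9% of all tested miRNAs were called higher and 18.6% lower. With library totals in place of TMM the calls were 3 higher and 4 lower at P0, and 6 higher and 5 lower at P16. Over all miRNAs they were then 231 at P0 and 277 at P16, in either direction. The 2 comparisons share the E16 libraries and are not independent.

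The median log2 fold change of the 43 tested members was 0.92 at P0 (all miRNAs, 0.00) and 1.32 at P16 (all miRNAs, -0.09). With groups at 0 counts set to their bound, and members at 3 counts or fewer in every library of both groups left out, it was 0.92 over 31 members and 1.35 over 36. Of the 43, 27 had a positive value at P0 and 29 at P16, against 48.5% and 46.8% of all tested miRNAs. Of the 6 members that passed the filter at a single time point, 3 passed at E16, 2 at P0 and 1 at P16, so these counts and medians describe the tested members and no more.

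**Figure D3:**
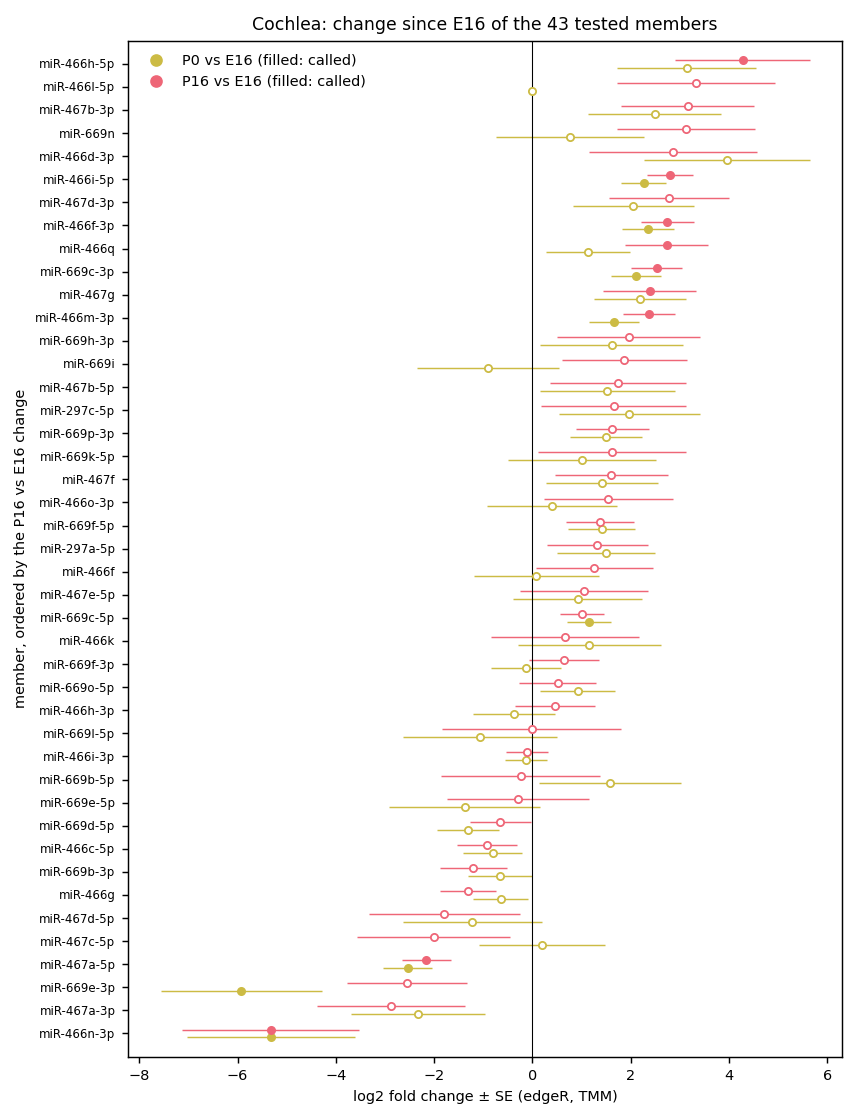
Log2 fold change against E16 (x axis, points with bars of 1 SE) of the 43 cochlea members tested, at P0 and at P16, ordered by the P16 value. Filled points were called; 7 members lie on the right at P16, among them miR-466i-5p at 2.80, and miR-467a-5p lies on the left in both comparisons. Open points without a bar had 0 counts in both groups.

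miR-466i-5p was the most abundant member of the cochlea. Its level was 2714 and 2340 CPM at E16, 9935, 8821, 9894 and 6379 at P0, and 12928, 10215, 10846 and 15579 at P16. Both E16 libraries lay below all later ones. The log2 fold change was 2.26 at P0 (SE 0.45, edgeR FDR 9.05e-06) and 2.80 at P16 (SE 0.465, edgeR FDR 3.19e-08), or 4.79-fold and 6.96-fold. Over 18 alternatives these log2 values stayed within 1.79 to 2.54 and 2.29 to 3.17. The FDR at P0 ranged from 4.81e-12 to 0.0981 (edgeR or DESeq2), and the call was lost in a fit of all 21 libraries only.

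The other arm of the same hairpin, miR-466i-3p, was second in level and followed another course. It stood at 732 and 898.5 CPM at E16, at 647.6, 453.4, 572.3 and 501.7 at P0, and at 571.7, 493.9, 436.9 and 610.9 at P16. On library totals the E16 libraries were the highest, but in the fit the log2 fold change was -0.12 at P0 (SE 0.427, edgeR FDR 0.875) and -0.10 at P16 (SE 0.429, edgeR FDR 0.892), neither called. Its sign turned under some alternatives. The ratio of 5p to 3p counts needs no scaling between libraries. It was 3.71 and 2.6 at E16, 15.3, 19.5, 17.3 and 12.7 at P0, and 22.6, 20.7, 24.8 and 25.5 at P16. The 3 time points did not overlap in this ratio, which was looked at after the values were seen and was not tested. In the SOC libraries the ratio was 0.0526 to 1.45 on 2 to 60 counts of miR-466i-5p.

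miR-466f-3p, which has 3 hairpins inside Sfmbt2 and 1 on chromosome 13, showed a rise of like size. It was at 119.6 and 62.58 CPM at E16, 332.1, 347.3, 352.2 and 296.9 at P0, and 491.4, 307.4, 471.5 and 450.2 at P16, on 28 to 98 counts per library. Every later library lay above E16, with log2 fold changes of 2.35 (SE 0.525, edgeR FDR 9.92e-05) and 2.74 (SE 0.535, edgeR FDR 3.67e-06). Its 4 hairpins have 2 further entries in the table, and the cochlea libraries held 598 counts of miR-466f-3p and 1 of miR-466f-5p. The SOC libraries held 24 and 0. miR-466f, which names no arm, had 8, 6 and 11 counts in all cochlea libraries of E16, P0 and P16 and 54, 121 and 51 in those of the SOC, so that it was the leading entry of these hairpins in the SOC only.

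miR-669c-3p and miR-466m-3p, which rose at both times, had hairpins inside Sfmbt2 only (Mir669c, chr2:10509296-10509404, and Mir466m, chr2:10466663-10466746). miR-669c-3p was at 134.1 and 87.17 CPM at E16, 409.6, 429.3, 269.6 and 281.6 at P0, and 441.3, 352.8, 367.5 and 643.1 at P16. Its log2 fold changes were 2.11 (SE 0.512, edgeR FDR 0.000428) and 2.53 (SE 0.522, edgeR FDR 1.35e-05). miR-466m-3p was at 134.1 and 84.93 CPM at E16, 332.1, 279.7, 225.6 and 168.9 at P0, and 310.9, 347.7, 429.9 and 490.4 at P16. For both the later libraries were all above E16. The log2 fold changes of miR-466m-3p were 1.66 (SE 0.515, edgeR FDR 0.00837) and 2.36 (SE 0.53, edgeR FDR 7.22e-05).

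The 5p arm of the same hairpin, miR-669c-5p, was called at P0 and not at P16. Its level was 384.1 and 489.5 CPM at E16, 503.7, 805.5, 803.4 and 686 at P0, and 486.4, 221.7, 742 and 1262 at P16. The lowest P16 library (replicate 2, with the TMM factor of 0.648) lay below E16. The log2 fold change was 1.15 at P0 (SE 0.45, edgeR FDR 0.0435) and 1.02 at P16 (SE 0.449, edgeR FDR 0.0654). The P0 call was lost in 9 of 18 alternatives (FDR 0.0103 to 0.368), among them library totals in place of TMM and leaving out either E16 library or P0 replicate 2, 3 or 4.

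**Figure D4:**
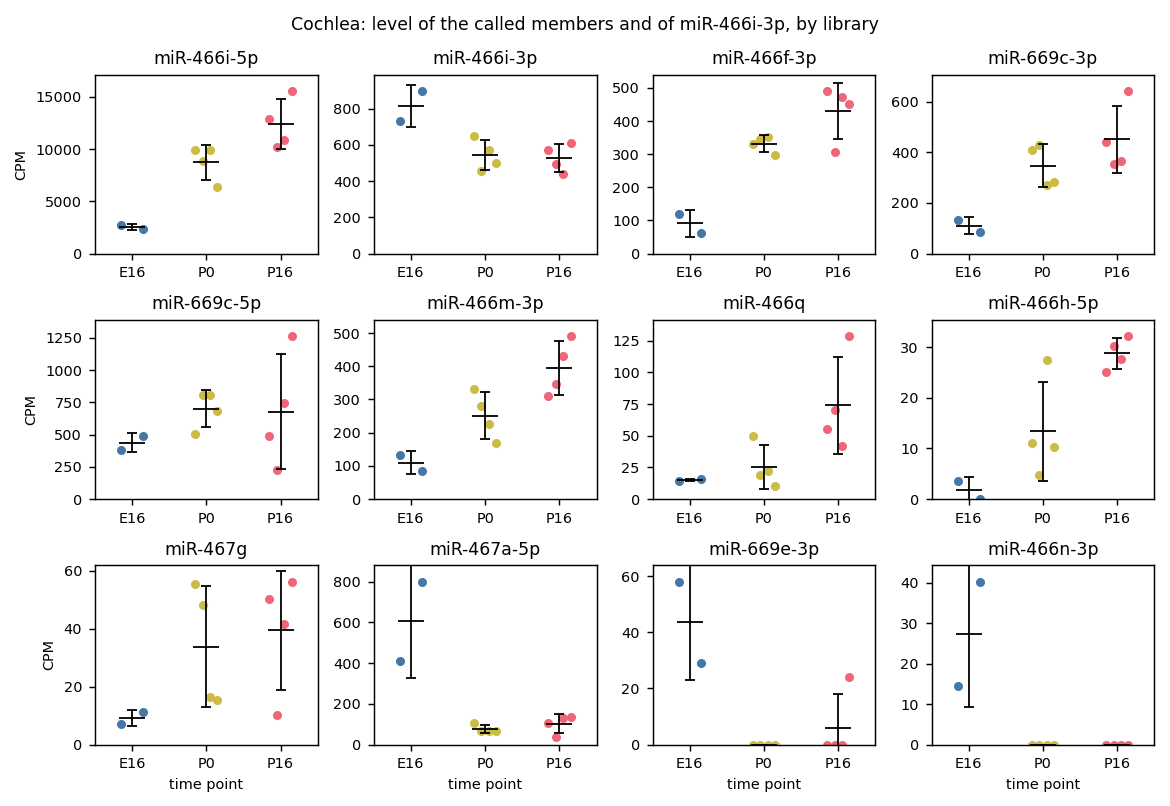
Level in CPM (linear axis from 0) of the 11 members called in the cochlea and of miR-466i-3p, at E16 (n = 2), P0 (n = 4) and P16 (n = 4). Points are libraries, and bars show the mean ± SD. miR-466i-5p rises from 2340 to 2714 CPM at E16 to at least 10215 at P16, and miR-467a-5p falls from at least 409.5 CPM to at most 136.7.

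The other 3 members called at P16 had few counts. miR-466q, outside Sfmbt2, had 4 and 7 counts at E16, 9, 4, 4 and 2 at P0, and 11, 14, 6 and 16 at P16, which made means of 15.1 ± 0.814, 25.3 ± 17.1 and 74 ± 38.3 CPM. At P16 it differed by 2.73 on the log2 scale (SE 0.846, edgeR FDR 0.00603), and that call was lost without either E16 library. miR-467g, also outside, had 2 and 5 counts at E16 and 10, 2, 6 and 7 at P16, a log2 fold change of 2.38 (SE 0.946, edgeR FDR 0.0381) that was lost in 7 of 18 alternatives (FDR 0.00629 to 0.218). miR-466h-5p, inside Sfmbt2, had 1 and 0 counts at E16 and 5, 6, 4 and 4 at P16. The ratio of its pooled counts, each set against the library totals, was 20.6, with an exact 95% counting interval of 3.28 to 857. Of these 2 groups it passed the filter at P16 only, so the ratio is given as a description. The interval covers counting error and not the spread between libraries. These small counts set the precision of all 3.

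The member that fell on the most counts was miR-467a-5p. It was at 409.5 and 800.1 CPM at E16 (113 and 358 counts), at 105.2, 67.52, 66.03 and 66.55 at P0, and at 105.3, 35.28, 131.8 and 136.7 at P16. Both E16 libraries lay above all later ones, although they differed from each other by more than any pair at P0. The log2 fold change was -2.54 at P0 (SE 0.499, edgeR FDR 6.58e-06) and -2.16 at P16 (SE 0.497, edgeR FDR 0.000118). The P0 call held in all 18 alternatives (-3.04 to -1.93), and the P16 call was lost without E16 replicate 2 (edgeR FDR 0.112). The 3p arm of these hairpins, miR-467a-3p, had 6 and 9 counts at E16 and 0 or 1 in each later library and was not called.

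miR-669e-3p and miR-466n-3p were counted at E16 and hardly later. Both passed the filter at E16 alone, and their values are given as a description. miR-669e-3p (Mir669e, chr2:10467495-10467613) had 16 and 13 counts at E16, 0 in all 4 P0 libraries and 0, 0, 0 and 3 at P16. Against the limit of 3 counts per library that a count of 0 allows, and on the TMM scale of the fit, it was at least 1.99-fold lower at P0. miR-466n-3p (Mir466n, chr2:10513741-10513834) had 4 and 18 counts at E16 and 0 in all 8 later libraries. By the same limit it was at least 1.27-fold lower at P0 and at least 1.04-fold lower at P16, both under the fold of 1.5 asked of a call, which was met by the fitted value only. DESeq2 did not call miR-669e-3p at P0 and gave no adjusted p for miR-466n-3p, and leaving out E16 replicate 2 removed both calls of miR-466n-3p.

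The calls of the cochlea depended on the 2 libraries of E16, for the members and for all miRNAs alike. Without E16 replicate 2, 3 of the 8 calls at P0 remained (miR-466i-5p, miR-467a-5p and miR-669e-3p) and 4 of the 9 at P16 (miR-466i-5p, miR-466f-3p, miR-669c-3p and miR-466m-3p), the lone library being assumed to vary like the other groups. Over all 896 miRNAs the calls of either direction went from 70 higher and 149 lower to 106 in all at P0, and from 98 higher and 167 lower to 160 in all at P16. Without E16 replicate 1, 6 of 8 and 7 of 9 remained, with 135 and 188 calls over all miRNAs. In a fit of all 21 libraries, 4 of 8 and 7 of 9 remained, with 110 and 176 calls.

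Among the members at higher level that were not called, miR-466g was at 217.4 and 203.4 CPM at E16, 77.2 to 107.5 at P0 and 24.1 to 95.3 at P16. All later libraries were below E16 on library totals, and the log2 fold change was -0.64 at P0 (SE 0.558, edgeR FDR 0.405) and -1.32 at P16 (SE 0.573, edgeR FDR 0.0619). It was called at P16 with library totals or without P16 replicate 1 or 2.

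From P0 to P16 no cochlea member was called by edgeR or by DESeq2. At an unadjusted edgeR p under 0.05 there were 4 of 43, miR-466q, miR-669i, miR-669n and miR-466l-5p, with the lowest FDR at 0.0926 for miR-466q. Of these, miR-466l-5p had 0 counts at E16 and P0 and 3 in all at P16. It passed the filter at P16 only, so that a higher level there was fixed by its being tested. Of all 896 miRNAs, edgeR called 3.91% higher and 6.58% lower, and 27.8% had an unadjusted p under 0.05. DESeq2 called 113 of the 896. For miR-466i-5p the log2 fold change was 0.54 (SE 0.328, edgeR FDR 0.273).

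By position, the called cochlea members at P0 were 6 of 33 tested inside Sfmbt2 (3 higher, 3 lower), 1 of 7 outside (higher) and 1 of 3 with copies in both (higher). At P16 they were 5 of 33 (3 higher, 2 lower), 3 of 7 (all higher) and 1 of 3 (higher). Over all 896 tested miRNAs 7.81% and 16.6% were called higher and lower at P0, and 10.9% and 18.6% at P16, so these small counts are a description of where the calls lay. By arm, at P16, 3 of 16 tested 3p arms were called higher and 1 lower, and 2 of 19 5p arms higher and 1 lower. These shares were not compared by a test.

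In the SOC no member was called in any comparison by edgeR in the main fit. From E16 to P0, 0 of the 16 tested members had an unadjusted p under 0.05 (edgeR) and 0 were called by DESeq2. Of all 694 tested miRNAs, edgeR called 2.45% higher and 4.18% lower, 22.8% had an unadjusted p under 0.05, and DESeq2 called 84. From E16 to P16 the unadjusted count was 1 of 16 and DESeq2 called 1 (325 of all miRNAs). Of all miRNAs, edgeR called 21.2% higher and 20% lower, and 51.7% had an unadjusted p under 0.05. From P0 to P16 the unadjusted count was again 1 of 16, with 1 call by DESeq2 (167 of all miRNAs). Here edgeR called 8.07% of all miRNAs higher and 8.07% lower, and 36.2% had an unadjusted p under 0.05. The member was miR-467a-5p each time.

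miR-467a-5p was at 75.88, 103.3, 119.4 and 82.75 CPM at E16, 91.37, 134.4, 94.38 and 125.8 at P0, and 41.38, 68.11 and 62.07 at P16. All 3 P16 libraries lay below all others. Its log2 fold change came to 0.08 for P0 vs E16 (SE 0.344, edgeR FDR 0.932), -0.85 at P16 vs E16 (SE 0.38, edgeR FDR 0.0859) and -0.93 at P16 vs P0 (SE 0.381, edgeR FDR 0.0995). With library set in the model the last 2 were -0.88 (edgeR FDR 0.0126) and -0.83 (edgeR FDR 0.0131), both called. Within set B it was 75.88 and 82.75 CPM at E16, 91.37 at P0 and 41.38 at P16.

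Replicate 4 of P0 stood apart from the other SOC libraries in several members. miR-466c-5p was at 3.74 to 6.37 CPM at E16 and at 5.3, 6.7 and 4.7 in the first 3 P0 libraries, against 58.1 in replicate 4. At P16 it was at 2.88 in set B and at 13.4 and 10.4 in set C. Likewise miR-466g had 1.47, 1.15, 0.771 and 17.4 CPM at P0, and 0.623, 4.57 and 6.53 at P16. These members were thus higher in each set C library than in any set B library. Their log2 fold changes at P0 vs E16 were 1.67 (SE 0.815, edgeR FDR 0.242) and 1.48 (SE 0.974, edgeR FDR 0.414), and without the set C libraries, a choice made after seeing the data, they were -0.18 and -0.82. With the set as a covariate, P16 vs E16 gave -1.53 for miR-466c-5p (edgeR FDR 0.0107) and -2.00 for miR-466g (edgeR FDR 0.00554) in place of 0.50 and 0.97, but their replicates overlapped and neither was called. The direction of these members at P16 therefore depended on the treatment of the sets.

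The set C libraries were also the highest for miR-669c-5p, second in level in the SOC. It was at 14.79, 18.85, 17.68 and 35.88 CPM at E16, 22.38, 31.39, 27.37 and 74.03 at P0, and 19.32, 53.31 and 65.69 at P16. The log2 fold change of 1.00 at P16 vs E16 (SE 0.526, edgeR FDR 0.141) was not called. With the set as a covariate it was -0.04. The remaining members by level, miR-669d-5p, miR-669o-5p and miR-669b-5p, had E16 means of 11.6 ± 3.76, 9.89 ± 1.92 and 9.1 ± 1.82 CPM (n = 4). None was called in any comparison of the main fit. Over 21 alternatives their log2 fold changes at P16 vs P0 ranged from -1.52 to -0.12, -1.28 to -0.19 and -0.75 to -0.12. At P16 vs E16 the ranges were -1.26 to 0.44, -1.05 to 0.31 and -0.75 to 0.04. Their direction at P16 vs E16 thus depended on the processing.

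**Figure D5:**
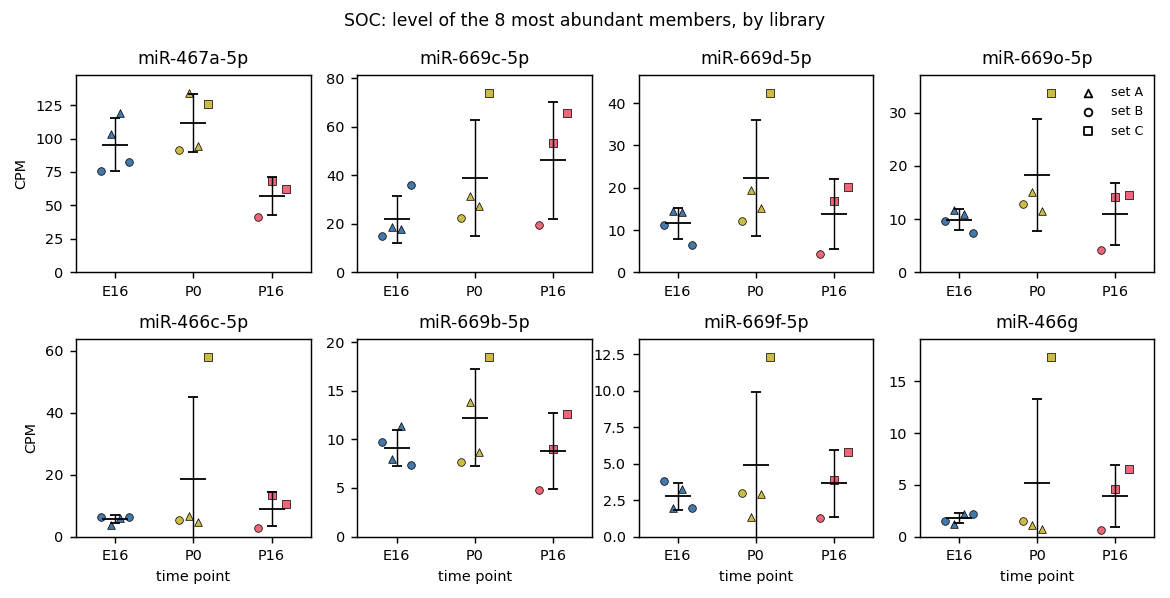
Level in CPM (linear axis from 0) of the 8 most abundant members in the SOC at E16 (n = 4), P0 (n = 4) and P16 (n = 3). Points are libraries, with triangles, circles and squares for sets A, B and C, and bars show the mean ± SD. The set C library at P0 is the highest of that time point in 7 of the 8 panels, and miR-467a-5p is lowest at P16.

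A difference between organs in the change over time was tested through an interaction term over the 545 miRNAs detected in both, 15 of them members. At P0 vs E16 it was called for 1 member, miR-467a-5p, and for 11.9% of all miRNAs. The change of miR-467a-5p was higher in the SOC than in the cochlea by 2.49 on the log2 scale (SE 0.575, edgeR FDR 0.00518), being 0.08 in the SOC and -2.54 in the cochlea. Over 28 alternatives the value was 2.14 to 3.21, and the call was lost only with no filter on low counts (edgeR FDR 0.0882). At P16 vs E16 it was 1.17 (SE 0.593, edgeR FDR 0.175), no member was called, and 16.9% of all miRNAs were. DESeq2 also called 0 members there, and 139 of the 545 miRNAs. The lowest unadjusted edgeR p of a member was 0.0596, for miR-467a-5p.

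For miR-466i-5p, which rose in the cochlea and had 2 to 60 counts in the SOC libraries, the interaction was -1.42 at P0 (SE 1.13, edgeR FDR 0.396) and -1.94 at P16 (SE 1.18, edgeR FDR 0.29). It was called in both with the set as a covariate, and at P0 also without SOC replicate 4 of P0. Whether its change differed between the organs thus depended on the treatment of the sets.

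Other miRNAs with similar repeats or a shared seed were listed for comparison, with earlier results of these data known. In the cochlea miR-1187 had 287.9 ± 84.8 CPM at E16, 974.5 ± 190.8 at P0 and 1392 ± 344.4 at P16, with log2 fold changes of 2.22 (SE 0.467, edgeR FDR 3.15e-05) and 2.76 (SE 0.481, edgeR FDR 1.5e-07). miR-574-5p rose from 2070 ± 109.5 CPM to 7499 ± 917.4 and 6414 ± 2978, by 2.33 (SE 0.45, edgeR FDR 4.5e-06) and 2.10 (SE 0.445, edgeR FDR 2.27e-05). The other arm, miR-574-3p, also rose, by 2.00 (SE 0.451, edgeR FDR 0.00011) and 3.08 (SE 0.48, edgeR FDR 3.97e-09). In the SOC none of these 3 was called at any comparison. miR-668-5p, among the miRNAs with a RefSeq sequence the only other one with the seed of miR-467h (UAAGUGU), had 0 counts in all cochlea libraries and rose in the SOC at P16 vs E16 by 2.47 (SE 0.57, edgeR FDR 0.00503). How many reads fit both these miRNAs and members was not tested, since the table holds counts and no reads.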

How the data were processed

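Small RNA-seq counts per mature miRNA of 21 libraries were used as deposited. The authors made these counts by aligning reads, and the submitters' processing notes name Bowtie2 (2.2.5), DESeq2 and mm10. The study's methods describe mapping with Bowtie to a MirGeneDB reference, whereas the table carries miRBase names. How reads with several matches were counted is not given in the sources used here. All columns belonged to a sample.

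Samples were grouped by organ and time point from their titles. The methods call the replicates biological and the labels number them only, so p-values measure the spread between these pooled samples. miRNAs that exceeded 1 CPM in 2 or more replicates of any time point were tested per organ with edgeR (4.0.16, R 4.3.3): TMM factors, quasi-likelihood F test and Benjamini-Hochberg adjustment over all tested miRNAs. A call needed FDR under 0.05, fold change over 1.5 and replicates that did not overlap. Intervals of pooled counts were exact binomial at 95%. Alternatives were DESeq2 (1.42.0), other size factors and filters, a replicate block, 1 fit of all libraries, the SOC library sets as a covariate, and leaving out each library. The SOC sets were defined from the values (miR-99b-5p over 10% in set A, miR-191-5p under 1% in set C).

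Named members were the 8 most abundant per organ and, per comparison, up to 4 called members of largest absolute log2 fold change with at least 20 counts. Some members met both rules. miR-466q and miR-467g were named after their values were seen. The members and lists were chosen with earlier results of these data known. Samples of the same replicate number were all correlated in 1 comparison, SOC P0 vs E16 (4 of 4 pairs, r from 0.249 to 0.515). There 5 of 8 samples correlated best with their own number, and 3 of 12 other pairs had r over 0.1. Set A held replicates 2 and 3 at both time points, so number and set went together in part. The values therefore do not establish a pairing. The fit was tested on simulated data with 200 miRNAs changed 8-fold at P16 vs E16: it called 104 of 200 among 896 miRNAs in the cochlea and 167 of 200 among 694 in the SOC. Total counts limit precision, and counting limits (3 counts for a count of 0) cover counting error only. Figures were drawn with matplotlib (3.10.9).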

Additional observations from a re-analysis of the deposited data

Results flagged for a closer look

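In 60 groups of 4 libraries with named members, 10 had a library far from the other 3 (Dixon's test). Chance marks about 5% of independent groups. These groups share libraries and can share reads, so the number flagged cannot be set against that share. Of the 10 flagged, 5 were the same library, SOC P0 replicate 4 (set C). There miR-466c-5p was at 58.1 CPM (the other 3 at 4.7 to 6.7), miR-669o-5p at 33.8 (11.5 to 15), miR-466g at 17.4 (0.771 to 1.47), miR-669f-5p at 12.3 (1.34 to 2.99) and miR-466i-3p at 12.2 (1.05 to 2.93). The remaining 5 lay in different places. In cochlea P0, miR-467a-5p was at 105 CPM in replicate 1 (66 to 67.5 in the others) and miR-669f-5p at 203 in replicate 2 (27.5 to 51.2). In cochlea P16, miR-669e-3p was at 24.1 CPM in replicate 4 and miR-669b-5p at 5.01 in replicate 1, with 0 in the others, on 3 counts and 1 count. Where the others are at 0, any count is flagged. In SOC E16, miR-466c-5p was at 3.74 CPM in replicate 2 (6.15 to 6.37 in the others).

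The change of miR-467a-5p from E16 to P0 differed between the organs, being 2.49 higher in the SOC on the log2 scale (edgeR interaction FDR 0.00518).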

How the results depend on the processing

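No called change turned its direction under any alternative run. In the cochlea, the calls at P0 vs E16 (8) went to 4 with all 21 libraries in 1 fit, and leaving out single libraries gave 3 (without E16 replicate 2) to 9. At P16 vs E16 (9) leaving out single libraries gave 4 (without E16 replicate 2) to 13. P16 vs P0 stayed at 0 to 0. In the SOC, P16 vs E16 (0) gave 1 by DESeq2 (miR-467a-5p), 2 with the library set as a covariate (miR-467a-5p and miR-669e-5p) and 1 without set C (miR-466k), and P16 vs P0 (0) gave 1 by DESeq2 and 1 with the set as a covariate, both miR-467a-5p. Over all 694 miRNAs the SOC calls at P16 vs E16 were 147 higher and 139 lower, then 325 in all by DESeq2 and 281 with the set. Those at P16 vs P0 were 56 higher and 56 lower, then 167 in all by DESeq2 and 145 with the set. Leaving out single libraries left all SOC member calls at 0. The interaction at P0 (1) gave 3 with library totals, 0 with no filter, 2 with the set as a covariate and 1 to 2 without single libraries (2 without SOC P0 replicate 4). At P16 (0) it gave 1 with library totals and 4 with the set. Over all 545 miRNAs the interaction calls at P0 went from 65 to 143 with library totals and 170 with the set. With no filter they were 59 of 1647, and without SOC P0 replicate 4 they were 93. At P16 they went from 92 to 129 with library totals and 127 with the set. The summed cochlea level at E16 was 4414 CPM after TMM, in place of 5776. Detected SOC members (16) became 36 with at least 1 count and 7 over 5 CPM. Over all miRNAs the 694 detected became 1220 and 493.

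With the replicate number as a block the cochlea calls were 6 and 7 (155 and 201 over all miRNAs). The SOC stayed at 0 in P0 vs E16, where all pairs of the same number were correlated. In the other comparisons not all pairs of the same number were correlated. The depth of the cochlea limits members of few counts. Summing members with the same sequence or counts was not run: 0 sets had the same counts, and the 7 of the 54 members with a sequence gave 0 sets; the others were not compared.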
